A study of Mus musculus with 8 samples.

Results

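Annexins, S100 proteins and galectins are families of small soluble proteins that act at membranes and cell surfaces. In 3 weeks-old mouse neural retinas they comprised 36 of the 43472 listed gene symbols, matched by symbol. They were 12 annexins (Anxa followed by a number), 16 S100 genes (S100a, S100b and S100g) and 8 galectins (Lgals followed by a number). The families were picked with earlier results of these data known. Of these 36 genes, 31 had at least 1 count in a library, and 19 passed the filter on low counts and were tested among 12516 genes. In the Mfp2-/- retinas 13 of the 19 tested genes rose and 0 fell. The largest increases were those of S100a6, Lgals3, Lgals9, Anxa1, S100a11 and S100a16, of which Lgals3 and Lgals9 passed the filter only with the Mfp2-/- libraries. S100b, Lgals1, Lgals4, Lgals8, Anxa7 and S100a13 did not pass the test.

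A library was made from both neural retinas of 1 mouse, on a C57BL/6J background. The 4 control mice were 3 Mfp2+/+ mice and 1 Mfp2+/- mouse (control replicate 2), and the 4 Mfp2-/- mice, bred from heterozygous parents, lacked multifunctional protein 2 (MFP2), the peroxisomal β-oxidation enzyme encoded by Hsd17b4, in the whole body. All mice were 3 weeks of age. MFP2 was missing from all organs, so that its absence in the retina and elsewhere cannot be told apart.

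Annexins bind phospholipid membranes when calcium rises, and are known for their part in membrane repair, vesicle traffic and the resolution of inflammation. S100 proteins are dimeric EF-hand calcium sensors that bind target proteins, among them several annexins, and some are released and act on receptors such as RAGE. Galectins bind β-galactosides on glycoproteins, link receptors at the cell surface and recognise damaged vesicles inside the cell. In the retina, members of these families are known from Müller glia, astrocytes, microglia and blood vessels.

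Hsd17b4 (chromosome 18, 50128201 to 50196269 of GRCm38) was read 47, 20, 78 and 37 times in the controls (replicates 1 to 4) and 1, 0, 1 and 0 times in the Mfp2-/- libraries. The libraries held 2340974 to 3226187 counts in genes in control and 1895485 to 2826553 in Mfp2-/- retinas. Of the 15 rod genes listed as markers, 15 were lower in Mfp2-/- retinas, where their summed level was 1586 to 2327 CPM (counts scaled to library size) against 48430 to 59226 CPM in control retinas. In RNA of a whole tissue, fewer cells of a type and less RNA per cell cannot be told apart. From sections of Mfp2-/- retinas of the same age, the authors reported photoreceptor nuclei normal in number and distribution, although more were apoptotic. The loss of rod RNA raises the share of all other RNA. The scaling between libraries (TMM) is meant to offset this, and the median log2 fold change over all tested genes was -0.0039. Levels below are CPM scaled with TMM, and "rose" or "fell" means an adjusted p under 0.05 over all 12516 tested genes.

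Libraries stood apart in genes of the lens, a neighbouring tissue in the eye. The summed level of 15 lens genes was 2417, 1309, 1029 and 531 CPM in control replicates 1 to 4 and 3976, 9857, 6333 and 588 CPM in Mfp2-/- replicates 1 to 4. Mfp2-/- replicate 4 thus lay within the control range and the other Mfp2-/- libraries above it. Some of these genes, such as the crystallins, can also be transcribed in the retina. Because of this split, the fits were repeated with the lens sum as a covariate and with Mfp2-/- replicate 4 as the only Mfp2-/- library. Both were chosen after the data were seen. Counts that the covariate changes are given with it, and fold changes for either setting. Mfp2-/- replicates 2 and 3 also stood apart in the share of reads that fell in no gene, 10.8% and 15.7% against 22.6% to 29.9% in the other libraries. Without both of them 12 of the tested members rose, all but S100a4 of the 13 described below.

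The 13 genes that rose were 68.4% of the 19 tested members, while 13.8% of all tested genes rose and 13.2% fell. Over all 12516 tested genes, 1728 rose in this fit and 1011 with the lens sum as a covariate. Fewer of all genes also rose with Mfp2-/- replicate 4 alone. With the lens sum as a covariate 9 of the 19 rose: Anxa1, Anxa5, S100a1, S100a6, S100a10, S100a11, S100a16, Lgals3 and Lgals9. With Mfp2-/- replicate 4 alone, the log2 fold changes of these 9 lay between 0.76 (S100a10) and 2.55 (S100a6). Those of Anxa2, Anxa3, Anxa6 and S100a4 were 0.51, 0.80, 0.54 and 0.30, and the median of all tested genes was -0.014. In that fit the lone library was assumed to vary like the controls. Every Mfp2-/- library lay above every control library for 13 members and below for 0, compared with 15.1% and 15.8% of all tested genes. Anxa7 was separated in this way without passing the test, and S100a4 passed it although its groups overlapped. The median log2 fold change of the 19 genes was 1.07. Of the 3377 genes called in all, 1728 were higher, and with upper-quartile factors or total counts alone, which moved the median of all genes to 0.12, 2369 of 3691 and 2423 of 3714 were higher. The filter keeps a gene that is high in only one group: 15 of the 19 passed it on the controls alone and 10 of these rose, whereas Anxa3, Lgals3, Lgals9 and S100a13 passed only with the Mfp2-/- libraries.

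**Figure D1:**
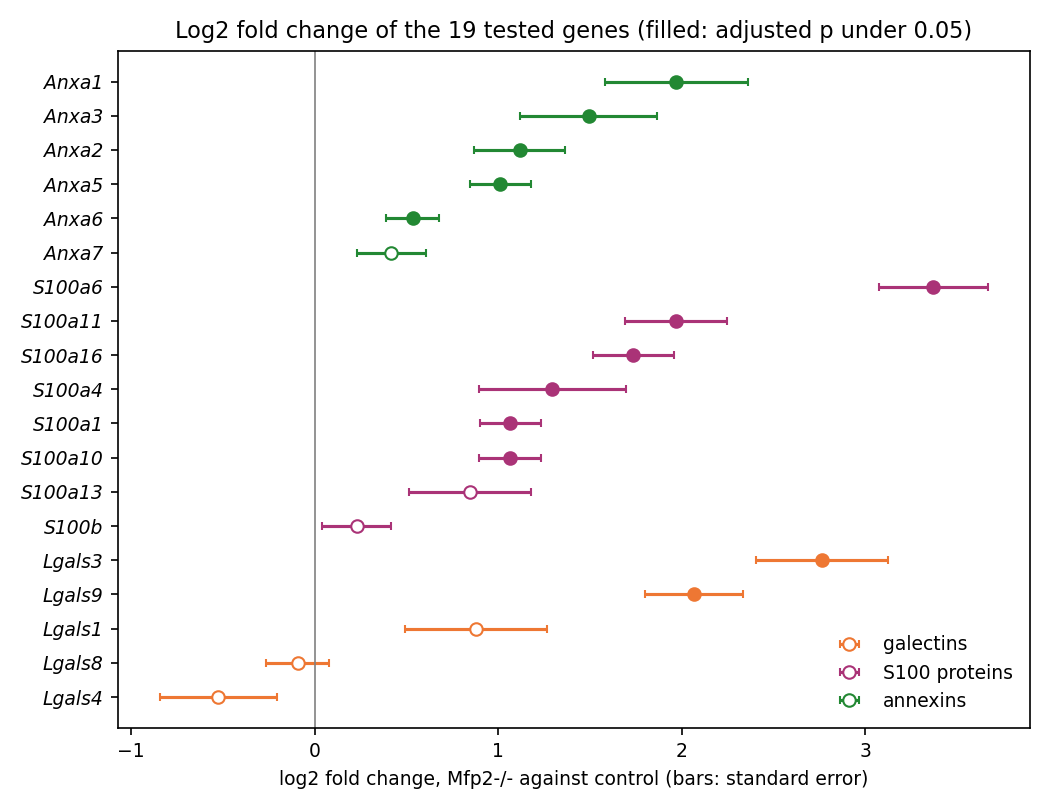
Log2 fold change between Mfp2-/- and control retinas (horizontal axis) for the 19 tested genes, grouped by family, with bars for the standard error and filled symbols for an adjusted p under 0.05. S100a6 lies furthest to the right at 3.37, Lgals4 furthest to the left at -0.53, and all filled symbols lie to the right of 0.

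The promoters shown first are those of the upregulated members that match a loose motif for AP-1. AP-1 is a factor of stress and injury responses. RefSeq promoters on GRCm38.p6 were found for 15 of the 19 tested members, 10 of them upregulated. Within 250 bases before a transcription start, TGANTCA on either strand, with any base in the middle, was searched as the AP-1 motif. It occurred in 3 of these 10 upregulated and in 0 of the 5 other members. Of 32851 mouse promoters of the same length, 6.75% had it. The 15 members had 17 promoters, and a member counted if any of its promoters matched, whereas the 6.75% counts promoters. The match lies 95 bases before the start of Anxa2, 136 and 38 bases before that of S100a11, and 192 bases before the start of S100a16 that lies within the gene. The middle base is G in Anxa2 and S100a11 and A in S100a16, whose other start had no match. The 3 windows are on the plus strand, at chr9:69453433-69453619 for Anxa2, chr3:93520246-93520487 for S100a11 and chr3:90540896-90541145 for S100a16, and bases that the annotation places in an exon were left out. They are written 5′ to 3′ with the matches in capitals:
Anxa2: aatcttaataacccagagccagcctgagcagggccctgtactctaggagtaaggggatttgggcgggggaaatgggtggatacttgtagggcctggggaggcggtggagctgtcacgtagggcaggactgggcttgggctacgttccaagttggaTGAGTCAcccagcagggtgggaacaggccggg
S100a11: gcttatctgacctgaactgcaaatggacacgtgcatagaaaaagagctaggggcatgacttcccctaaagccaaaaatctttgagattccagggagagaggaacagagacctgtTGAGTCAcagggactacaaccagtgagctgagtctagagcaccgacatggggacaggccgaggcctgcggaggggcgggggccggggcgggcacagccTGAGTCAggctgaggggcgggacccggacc
S100a16: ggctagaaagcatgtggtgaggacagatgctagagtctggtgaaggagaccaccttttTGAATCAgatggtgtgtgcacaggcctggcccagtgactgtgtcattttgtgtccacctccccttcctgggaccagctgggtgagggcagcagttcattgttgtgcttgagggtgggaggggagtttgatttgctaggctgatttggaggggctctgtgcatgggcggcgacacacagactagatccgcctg
Of the other motifs searched on both strands, TTCNNNGAA (STAT) and TAATCC (CRX) occurred in 0 members, against 7.02% and 6.25% of all promoters. GGGCGG (SP1) occurred in 4 upregulated members and 1 other (32.7% of all promoters). TATAAA, the core of the classical element near the start of transcription, occurred in the 3 upregulated members Anxa1, Anxa2 and S100a4 (12.4% of all promoters). The AP-1 matches overlap no match to another motif in these windows. A match of letters is not a measured binding site.

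Of the annexins, 5 of 6 tested genes rose, of which Anxa3 passed the low-count filter only with the Mfp2-/- libraries. The summed level of all 12 annexins was 138 ± 8.998 CPM in the controls and 247 ± 22.8 CPM in Mfp2-/- mice (SD, n = 4), a ratio of 1.79. Their median log2 fold change was 1.06. Anxa1 encodes annexin A1, a mediator of the resolution of inflammation that acts on formyl peptide receptors (chromosome 19, 20373428 to 20390944). It was at 4.00, 4.52, 4.19 and 10.8 CPM in control replicates 1 to 4 and at 24.1, 14.7, 36.6 and 16.9 CPM in Mfp2-/- replicates 1 to 4. The groups did not overlap, control replicate 4 stood above the other controls, and the log2 fold change was 1.97 ± 0.39 (SE, adjusted p = 0.00406). It was 1.49 with Mfp2-/- replicate 4 alone, where it missed the threshold (adjusted p = 0.0527).

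Annexin A2, encoded by Anxa2 (chromosome 9, 69453620 to 69491795), forms a complex with S100A10 that gathers plasminogen and its activator at the cell surface. Levels of Anxa2 were 14.2, 13.6, 12.6 and 11.8 CPM in the controls and 23.4, 42.2, 29.9 and 18.8 CPM in Mfp2-/- replicates 1 to 4. Controls were close together and all Mfp2-/- libraries lay above them, by a log2 fold change of 1.12 ± 0.25 (SE, adjusted p = 0.00754). The order of the Mfp2-/- libraries was that of the lens sum, and the change was 0.70 with the lens sum as a covariate (adjusted p = 0.0512) and 0.51 with Mfp2-/- replicate 4 alone (adjusted p = 0.293). Anxa2 shares 98 exon bases with Gm16144 on the other strand, which had 0 counts.

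Anxa5 encodes the phosphatidylserine-binding annexin A5, which is used to detect dying cells (chromosome 3, 36448923 to 36475894). Its level was 38.2, 29.0, 41.3 and 28.6 CPM in the controls and 61.9, 80.8, 61.9 and 73.2 CPM in Mfp2-/- replicates 1 to 4. All Mfp2-/- libraries were higher, Mfp2-/- replicate 4 was among the highest, and the log2 fold change of 1.01 ± 0.17 (SE, adjusted p = 0.00130) was 0.97 with the lens sum as a covariate and 1.07 with Mfp2-/- replicate 4 alone. Annexin A6, which takes part in plasma membrane repair, is encoded by Anxa6 (chromosome 11, 54979108 to 55033445). For Anxa6, values of 72.4, 70.1, 62.6 and 51.9 CPM in the controls compared with 82.5, 105.7, 89.8 and 94.1 CPM in Mfp2-/- retinas. This was the smallest change among the members that rose (log2 fold change 0.53 ± 0.14 SE, adjusted p = 0.0196). Without control replicate 3 or 4 it missed the threshold (adjusted p = 0.0556 and 0.0588), as it did with the lens sum as a covariate (0.0837) and with Mfp2-/- replicate 4 alone (0.0929).

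Anxa3 had 4.73, 3.17, 2.26 and 2.44 CPM in the controls and 12.4, 11.2, 6.72 and 5.52 CPM in Mfp2-/- replicates 1 to 4. The nearest libraries of the groups were control replicate 1 and Mfp2-/- replicate 4, and the log2 fold change of 1.49 ± 0.37 (SE, adjusted p = 0.0136) fell to 1.08 (adjusted p = 0.0917) with the lens sum as a covariate and to 0.80 (adjusted p = 0.395) with Mfp2-/- replicate 4 alone. Anxa3 shares 112 exon bases with the gene model Gm42603 on the same strand. Anxa7, whose product synexin promotes membrane fusion, was at 11.6, 15.4, 15.8 and 16.7 CPM in the controls and at 20.2, 18.3, 17.1 and 23.9 CPM in Mfp2-/- mice (log2 fold change 0.42 ± 0.19 SE, adjusted p = 0.124). Among the untested annexins, Anxa4 had 21 counts in all controls together and 33 in all Mfp2-/- libraries, Anxa9 had 7 and 9, and Anxa8 had 2 and 2. Anxa10, Anxa11 and Anxa13 were listed at 0 in all libraries. Whether such a 0 reflects the RNA or the gene symbols and annotation used in counting was not tested.

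**Figure D2:**
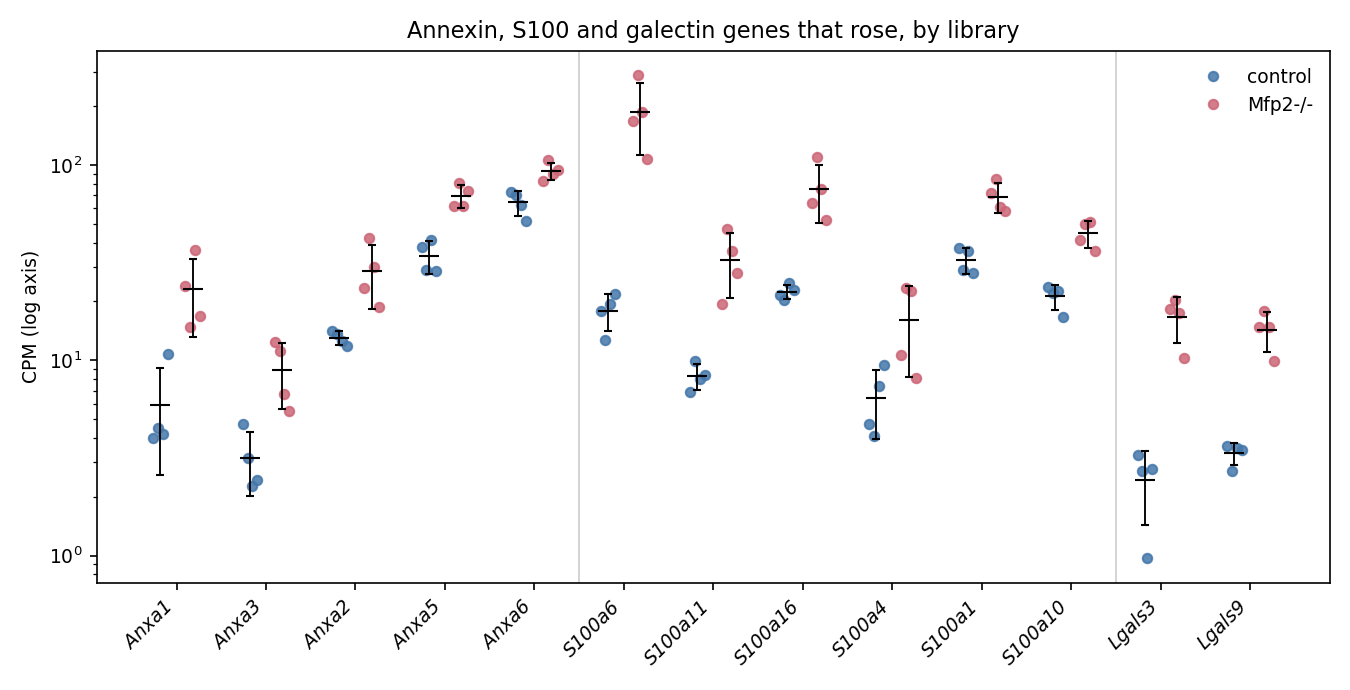
Level in CPM (vertical log axis) of the 13 upregulated genes in each of 4 control (blue) and 4 Mfp2-/- (red) libraries, with the mean and SD in black. The groups are apart for all genes shown except S100a4, and S100a6 reaches the highest level, 289 CPM in Mfp2-/- replicate 2.

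The S100 genes showed the largest change in summed level, from 155 ± 12.5 CPM in the controls to 483 ± 142 CPM in Mfp2-/- retinas (SD, n = 4), a ratio of 3.12. Of 8 tested genes 6 rose, with a median log2 fold change of 1.18 over the 8. S100a6 (chromosome 3, 90612882 to 90624181) encodes calcyclin, a calcium sensor that binds annexins among other targets. Its level was 17.8, 12.7, 19.4 and 21.9 CPM in the controls and 167, 289, 187 and 108 CPM in Mfp2-/- replicates 1 to 4. Even the lowest Mfp2-/- library was far above the highest control, and the increase of 10.3-fold (log2 fold change 3.37 ± 0.30 SE, adjusted p = 1.56e-05) was rank 31 from the top among 12516 genes.

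S100a6 followed the lens sum in the order of the Mfp2-/- libraries, whereas among the controls it was highest in replicate 4, where the lens sum was lowest. The log2 fold change of S100a6 was 2.91 with the lens sum as a covariate (adjusted p = 3.63e-05) and 2.55 in Mfp2-/- replicate 4 alone (adjusted p = 2.6e-06). It was thus smaller in both and still past the threshold.

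**Figure D3:**
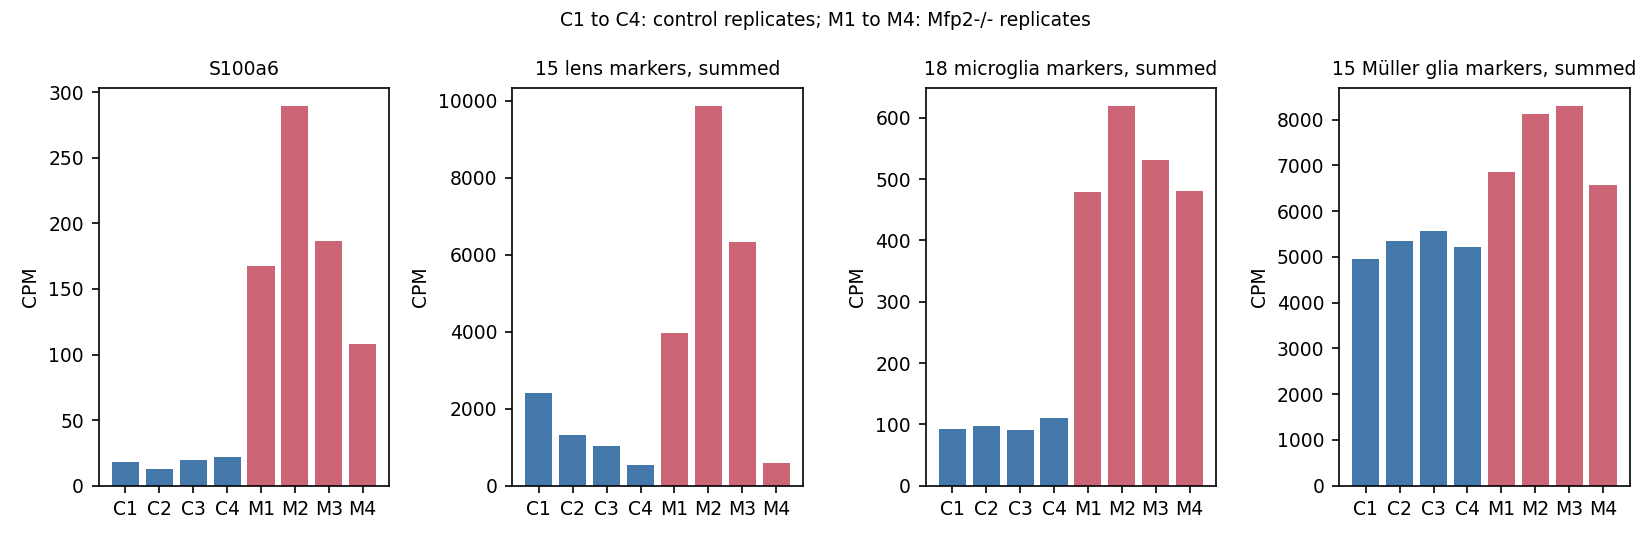
Level of S100a6 and summed levels of 15 lens, 18 microglia and macrophage, and 15 Müller glia genes, in CPM on linear axes from 0, in control replicates 1 to 4 (C1 to C4, blue) and Mfp2-/- replicates 1 to 4 (M1 to M4, red). Mfp2-/- replicate 4 has a lens sum of 588 CPM, within the controls, and 108 CPM of S100a6, above all controls.

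S100a11, whose product binds annexin A1 (chromosome 3, 93520488 to 93526287), was at 6.91, 9.95, 8.06 and 8.36 CPM in the controls and at 19.5, 47.3, 36.3 and 27.9 CPM in Mfp2-/- replicates 1 to 4. All Mfp2-/- libraries were above the controls (log2 fold change 1.97 ± 0.28 SE, adjusted p = 5.01e-04), and Mfp2-/- replicate 1 was the lowest of them. Of the 251 windows of 50 bases at the end of its transcript, 53 also occur in transcripts of Gm12854 or Gm29240, so that some of its reads could have been assigned elsewhere or dropped. S100a16 (chromosome 3, 90537254 to 90543151) was at 21.5, 20.4, 24.8 and 23.0 CPM in the controls and at 63.7, 109.8, 75.3 and 52.2 CPM in Mfp2-/- replicates 1 to 4. The controls of S100a16 varied little and the increase was 3.33-fold (log2 fold change 1.73 ± 0.22 SE, adjusted p = 2.49e-04). With Mfp2-/- replicate 4 alone the log2 fold change was 1.74 for S100a11 and 1.198 for S100a16, both past the threshold.

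S100a10 encodes the partner of annexin A2 (chromosome 3, 93555080 to 93564643) and had 23.7, 22.2, 22.6 and 16.7 CPM in the controls and 41.4, 49.8, 50.8 and 36.4 CPM in Mfp2-/- replicates 1 to 4. The log2 fold change of S100a10 was 1.06 ± 0.17 (SE, adjusted p = 0.00111), with no overlap of the groups. With Mfp2-/- replicate 4 alone it was 0.76 and missed the threshold (adjusted p = 0.0618). S100a1, known as a regulator of calcium handling in muscle (chromosome 3, 90511034 to 90514392), was at 37.5, 29.0, 36.4 and 27.9 CPM in the controls and 71.5, 84.4, 61.2 and 58.1 CPM in Mfp2-/- mice. Its groups were apart too (log2 fold change 1.07 ± 0.17 SE, adjusted p = 9.38e-04).

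S100a4, whose product binds non-muscle myosin (chromosome 3, 90603771 to 90606045), was at 4.73, 4.07, 7.42 and 9.41 CPM in the controls and at 10.6, 23.4, 22.5 and 8.09 CPM in Mfp2-/- replicates 1 to 4. Mfp2-/- replicate 4 lay within the controls, and the call rested on the other libraries (log2 fold change 1.29 ± 0.40 SE, adjusted p = 0.0352). It was lost without control replicate 1, 2 or 3 (adjusted p = 0.0921, 0.0965 and 0.0630), without Mfp2-/- replicate 2 (0.0603), without Mfp2-/- replicate 3 (where the log2 fold change was 1.07), with the lens sum as a covariate (0.82, adjusted p = 0.276) and with Mfp2-/- replicate 4 alone (0.30, adjusted p = 0.751). Of its 251 end windows, 91 are shared with the gene model Gm42674 on the same strand.

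S100b, the classical S100 protein of glia and a ligand of RAGE (chromosome 10, 76253853 to 76261159), did not pass the test. It was at 30.9, 36.2, 46.8 and 45.3 CPM in the controls and at 36.8, 55.9, 53.8 and 40.8 CPM in Mfp2-/- mice, with overlapping groups (log2 fold change 0.23 ± 0.19 SE, adjusted p = 0.395). S100a13, which assists the release of FGF1, ranged from 2.55 to 6.79 CPM in the controls and from 6.02 to 11.2 CPM in Mfp2-/- mice (log2 fold change 0.85 ± 0.33 SE, adjusted p = 0.0838). S100a8 and S100a9, which form calprotectin of neutrophils and monocytes, had 2 and 2 counts in all controls and 3 and 7 in all Mfp2-/- libraries, and were not tested. S100a14 had 3 and 4 counts, S100a3 had 2 and 6, S100a5 had 2 and 0, S100a7a had 1 and 1, and S100a2 and S100g were listed at 0 throughout.

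Of the 16 S100 genes, 14 lie on chromosome 3. The first 12, from S100a1 to S100a9, span 184.69 kb, and S100a11 and S100a10 follow 2824.8 kb further. Within the first group the upregulated genes were interspersed: S100a13 and S100a14 lie between S100a1 and S100a16, S100a3 and S100a2 between S100a16 and S100a4, and S100a5 between S100a4 and S100a6. Of these, S100a13 was tested and did not pass, and the others had too few counts to be tested. The neighbours S100a11 and S100a10 both rose. S100a1 and S100a13 lie on opposite strands 42 bases apart, with log2 fold changes of 1.07 and 0.85, of which only the former passed the test; the difference between them was not tested. S100a8 and S100a9, next to S100a7a at the far end of the group from S100a1, stayed at the counts given above.

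**Figure D4:**
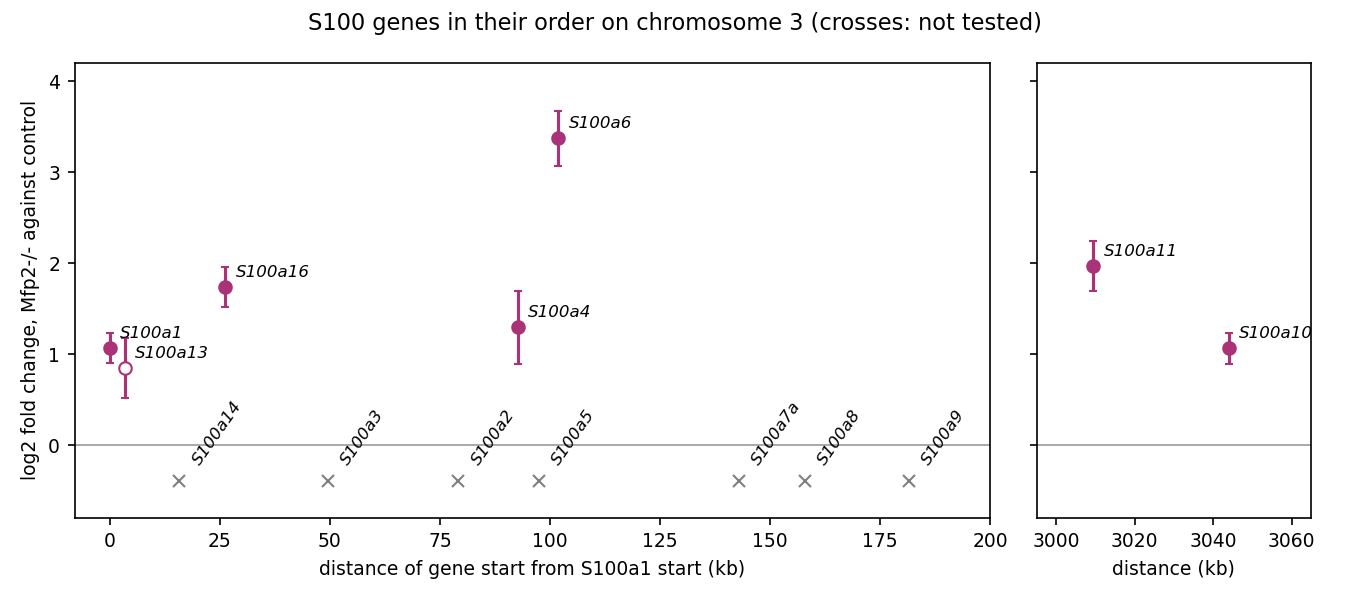
Log2 fold change between Mfp2-/- and control retinas (vertical axis, bars for the standard error) for the 14 S100 genes of chromosome 3, by distance of each gene's lower coordinate from that of S100a1 in kb, with a break before S100a11. Filled symbols passed the test, the open symbol (S100a13) did not, and crosses mark untested genes without a value, placed below 0 by convention.

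Of the galectins, 2 of 5 tested genes rose, Lgals3 and Lgals9, and both passed the low-count filter only with the Mfp2-/- libraries. The summed level of all 8 galectins was 67.0 ± 9.12 CPM in the controls and 95.9 ± 8.40 CPM in Mfp2-/- mice (SD, n = 4), a ratio of 1.43. Their median log2 fold change was 0.88. Lgals3 encodes galectin-3, which is known from activated microglia and macrophages (chromosome 14, 47367751 to 47386160). Its level was 3.28, 2.71, 0.968 and 2.79 CPM in the controls and 18.4, 20.3, 17.5 and 10.3 CPM in Mfp2-/- replicates 1 to 4. All Mfp2-/- libraries were above all controls, with an increase of 6.79-fold (log2 fold change 2.76 ± 0.36 SE, adjusted p = 2.79e-04). Lgals9 encodes the tandem-repeat galectin-9, a ligand of TIM-3 on immune cells (chromosome 11, 78962974 to 78984946). At 3.64, 2.71, 3.55 and 3.48 CPM in the controls and 14.9, 17.8, 14.8 and 9.93 CPM in Mfp2-/- mice, Lgals9 rose by 4.19-fold (log2 fold change 2.07 ± 0.27 SE, adjusted p = 2.71e-04). With Mfp2-/- replicate 4 alone, the log2 changes of Lgals3 and Lgals9 were 2.07 and 1.53, both past the threshold.

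Lgals1, encoding the dimeric galectin-1 (chromosome 15, 78926725 to 78930465), was at 13.5, 8.60, 13.2 and 4.18 CPM in the controls and at 13.1, 31.5, 15.5 and 14.3 CPM in Mfp2-/- replicates 1 to 4. Mfp2-/- replicate 2 stood above all other libraries, and the groups overlapped (log2 fold change 0.88 ± 0.39 SE, adjusted p = 0.115). Lgals8, which marks damaged vesicles for autophagy (chromosome 13, 12439415 to 12464944), was at 34.6, 38.0, 53.9 and 43.9 CPM in the controls and at 41.0, 32.0, 44.0 and 42.3 CPM in Mfp2-/- mice. These groups lay over each other (log2 fold change -0.09 ± 0.17 SE, adjusted p = 0.716), and Lgals8 shares 155 exon bases with Heatr1 on the other strand. Lgals4, known from gut epithelium, ranged from 5.82 to 9.95 CPM in the controls and from 2.54 to 7.08 CPM in Mfp2-/- mice (log2 fold change -0.53 ± 0.32 SE, adjusted p = 0.244). Lgals12 had 8 and 10 counts in all control and all Mfp2-/- libraries, Lgals7 had 2 and 1, and Lgals2 had 0 and 1.

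Because S100A10 pairs with annexin A2, and S100A11 with annexin A1, the ratio of each pair was compared within libraries. For S100a10 to Anxa2 the log2 ratio was 0.74, 0.71, 0.84 and 0.50 in control and 0.83, 0.24, 0.76 and 0.96 in Mfp2-/- replicates 1 to 4. The means were 0.70 ± 0.15 and 0.70 ± 0.31 (SD, n = 4), while S100a10 rose 2.09-fold and Anxa2 2.17-fold, and a 95% interval from the permutation test placed the difference between -0.60 and 0.45. For S100a11 to Anxa1 the log2 ratio was 0.63 ± 0.68 in control and 0.52 ± 0.89 in Mfp2-/- retinas, with an interval of the difference from -1.44 to 2.05. Neither difference passed the two-sided exact permutation test (p = 1.0 and 0.8, both 1.0 after adjustment over 2 pairs), whose smallest possible p was 0.0286. The annexin A11 partner of S100A6 could not be compared, since Anxa11 was listed at 0 in all libraries, with the doubt given above.

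Among the 13 upregulated genes, Mfp2-/- replicate 2 was the highest Mfp2-/- library for 10 and Mfp2-/- replicate 4 the lowest for 9. The Mfp2+/- control lay within the range of the 3 Mfp2+/+ controls for 12 of the 19 tested genes, above it for 3 and below it for 4. Markers of other cells moved with the genotype as well. All 14 tested of 18 microglia and macrophage genes rose, with a summed level of 91.0 to 111 CPM in the controls and 479 to 618 CPM in Mfp2-/- mice. Of 14 genes of reactive glia, 10 of 11 tested rose, and the sum went from 207 to 227 CPM in the controls to 1250 to 1537 CPM. In the Müller glia list, 10 of 15 genes rose (4954 to 5576 CPM in the controls, 6569 to 8290 CPM in Mfp2-/- retinas), and 4 of 5 tested of 7 astrocyte genes rose (473 to 559 and 706 to 921 CPM). In the lens list 6 of 15 genes rose. With the lens sum as a covariate 0 did so, which was largely set in advance, since that sum is made of these same genes. The median log2 fold changes of the microglia, reactive glia and Müller glia lists were 2.69, 3.24 and 0.99. In Mfp2-/- replicate 4 alone they were 2.50, 3.11 and 0.85.

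Fewer genes of other non-neuronal cells passed the test. For fibroblasts and ciliary body 3 of 6 tested of 8 genes rose (81.9 to 103 and 132 to 228 CPM), for endothelium and pericytes 1 of 10 of 13 (588 to 625 and 739 to 836 CPM), and for surface epithelium and cornea 1 of 2 of 10 (62.6 to 79.1 and 50.7 to 103 CPM). With the lens sum as a covariate these counts were 2 for fibroblasts and ciliary body, 1 for endothelium and pericytes, and 0 for surface epithelium and cornea. In the same order, the median log2 fold changes with Mfp2-/- replicate 4 alone were 0.31, -0.13 and 0.070. The retinal pigment epithelium had 0 of 9 tested of 12 genes rising (277 to 478 and 462 to 774 CPM), and blood cells 0 of 4 of 6 (219 to 780 and 244 to 447 CPM). Of the blood cell genes 3 fell with the lens sum as a covariate. Their median log2 fold change was -0.88, and -1.35 with Mfp2-/- replicate 4 alone. Of 10 neutrophil genes 1 was tested and rose (Mmp9), the sums were 13.8 to 24.7 and 35.4 to 58.4 CPM, and the defining genes Ly6g and Retnlg were at 0. Among retinal neurons, 8 of 12 ganglion cell genes rose, and 3 with the lens sum as a covariate. Their median log2 fold change was 0.55, and 0.44 with Mfp2-/- replicate 4 alone. Of 12 cone genes 2 rose and 8 fell, and 1 of 9 tested horizontal cell genes fell. The part of these cell types in the changes of the annexins, S100 proteins and galectins was not tested, except that the lens sum was entered as above.

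Partners and relatives were taken from lists of the pathways these proteins belong to. They are set beside the 13.8% of all genes that rose and the median of -0.0039. Under either lens setting fewer of all genes rose, as given above. In the plasmin system that acts with annexin A2 and S100A10, 3 of 4 tested of 9 genes rose and 0 fell (median 0.97). With the lens sum as a covariate 1 rose, Serpine2, and with Mfp2-/- replicate 4 alone the median was 0.66. Plat, the tissue plasminogen activator, was at 2.18, 2.71, 5.16 and 4.53 CPM in the controls and at 14.5, 13.2, 21.2 and 5.52 CPM in Mfp2-/- replicates 1 to 4 (log2 fold change 1.87 ± 0.43 SE, adjusted p = 0.00874). Its inhibitor Serpine2 was up by 1.08 ± 0.17 (SE, adjusted p = 9.67e-04) and Ahnak, a large partner of the annexin A2 complex, by 0.86 ± 0.20 (SE, adjusted p = 0.00948), whereas the plasminogen receptor gene Plgrkt was not called (-0.04 ± 0.25 SE). Of 13 genes for receptors of S100 proteins and annexin A1, 4 were tested and Cd68 alone rose (2.47 ± 0.49 SE, adjusted p = 0.00402), a gene that also stands in the microglia list and missed the threshold with Mfp2-/- replicate 4 alone (2.11, adjusted p = 0.0658). The list median was 0.41, and Ager, which encodes RAGE, was at 5.39 ± 1.40 CPM in the controls and 5.94 ± 1.91 CPM in Mfp2-/- mice (SD, n = 4, log2 fold change 0.15, adjusted p = 0.769).

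Among ligands and receptors of galectins, 8 of 15 tested of 20 genes rose and 1 fell (median 0.73). Cd44, a hyaluronan receptor that is also a reactive glia marker, was at 11.8 ± 3.61 CPM in the controls and 96.7 ± 6.91 CPM in Mfp2-/- mice (SD, n = 4, log2 fold change 3.04, adjusted p = 2e-06). Fn1, encoding fibronectin, and Cd47 rose by 1.26 and 0.72 on the log2 scale (adjusted p = 0.00124 and 0.00187). The one gene of this list that fell was Vtn, encoding vitronectin, from 530 ± 84.4 CPM to 43.0 ± 7.75 CPM (SD, n = 4, log2 fold change -3.63, adjusted p = 2.91e-07). Among enzymes that build the glycans galectins bind, 5 of 15 tested of 18 rose and 3 fell (median 0.46). With the lens sum as a covariate 4 rose and 3 fell, and with Mfp2-/- replicate 4 alone the median was 0.49. The galactosyltransferase B4galt1 fell most, from 72.1 ± 10.8 CPM to 12.6 ± 0.513 CPM (SD, n = 4, log2 fold change -2.51, adjusted p = 1e-06). Of the other enzymes, Man2a2 and Mgat1 changed by -1.26 and -0.71 (adjusted p = 6.45e-05 and 0.0032), and Mgat4b, which adds a branch to N-glycans, by 0.93 (adjusted p = 0.00296).

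In the list for membrane repair, a process in which annexins act, 5 of 17 tested of 21 genes rose and 2 fell (median 0.24). With the lens sum as a covariate 2 rose and 2 fell, and with Mfp2-/- replicate 4 alone the median was 0.30. Myof, encoding the ferlin myoferlin, was at 12.1 ± 2.45 CPM in the controls and 53.7 ± 9.06 CPM in Mfp2-/- mice (SD, n = 4, log2 fold change 2.15, adjusted p = 1.8e-05). Cav1 and Ehd2, which shape caveolae, rose by 0.94 and 1.23 (adjusted p = 0.00201 and 0.022, Ehd2 missing the threshold under either lens setting with 0.0774 and 0.0932), and the ESCRT gene Tsg101 changed by -0.62 (adjusted p = 0.0122). Of the copines and ferlins, which bind membranes through C2 domains, 2 of 9 tested of 12 rose, Myof and Cpne5 (0.44, adjusted p = 0.0467), and 0 fell (median 0.36). Cpne5 missed the threshold under either lens setting (adjusted p = 0.118 and 0.333).

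Other EF-hand calcium sensors and buffers moved both ways, with 15 of 33 tested of 34 genes higher and 5 lower (median 0.41). With the lens sum as a covariate 7 were higher and 5 lower, and with Mfp2-/- replicate 4 alone the median was 0.36. The 4 with the smallest adjusted p were photoreceptor genes that fell: Guca1b (-5.26, adjusted p = 1.41e-07), Rcvrn (-3.54, adjusted p = 1.78e-07), Cabp4 (-4.10, adjusted p = 3.45e-07) and Guca1a (-3.03, adjusted p = 2.36e-06), and 2 of these also stand in the rod and cone lists. Of 13 relatives by name that the rule does not take, 4 were tested. Lgalsl, a galectin-like gene, fell from 217 ± 14.5 CPM to 96.3 ± 16.6 CPM (SD, n = 4, log2 fold change -1.17, adjusted p = 2.29e-04), and Lgals3bp, whose product binds galectin-3, rose from 7.39 ± 4.15 CPM to 29.0 ± 6.69 CPM (log2 fold change 1.92, adjusted p = 0.00244). Grifin, a galectin-related gene of the lens, was at 19.5, 13.7, 49.8 and 1.10 CPM in Mfp2-/- replicates 1 to 4 and at 3.83 to 11.6 CPM in control (log2 fold change 1.67, adjusted p = 0.118), and S100pbp was level at -0.01 ± 0.12 (SE). The median of these 4 was 0.83, or -0.10 with the lens sum as a covariate and -0.57 with Mfp2-/- replicate 4 alone, and the other relatives included 7 listed at 0.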

How the data were processed

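Total RNA of both neural retinas of each mouse was sequenced from its 3′ ends (QuantSeq kit, 50-base single reads). The authors aligned the reads to mm10 and deposited raw counts per gene symbol, and the submitters' processing notes name HTSeq 2.7.14 beside HISAT2, SAMtools 1.5 and FastQC 0.11.7. Neither the annotation release nor the strand setting is given in the sources used here. Rows of reads outside genes were left out of library sizes. A table of the whole series held the same data and was not used.

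The deposited counts were tested in R 4.3.3 with edgeR 4.0.16 (filterByExpr, TMM, quasi-likelihood test, Benjamini-Hochberg adjustment over 12516 genes, threshold 0.05), and CPM were computed with TMM factors. A prior count of 2 was used for the log2 CPM behind the correlations of same-numbered libraries. The filter corresponded to 3.54 CPM in a library of median size. Alternatives were limma 3.58.1 (voom), DESeq2 1.42.0, other scaling factors, other filters, the replicate number as a block and leaving out libraries. Pair ratios were compared with exact permutation tests in SciPy 1.17.1. The script was tested on simulated counts. Changes of 1.5-, 2- and 4-fold were recovered for 5.97%, 38.8% and 92.4% of the 67, 67 and 66 genes changed among 12516. In the data 3377 genes were called. The adjustment of p depends on how many genes change, so these shares need not hold for the data. A gene that did not pass the test is not shown to be unchanged. Coordinates are from GENCODE M21 on GRCm38. Read positions were not analysed here, so tested members sharing exon bases or end sequence with others are marked as such. No molecular identifiers were used here, so that copies of the same molecule were counted as separate reads. The standard errors were derived from the quasi-likelihood test, as the absolute log2 fold change divided by the square root of the F statistic. They include variation between the libraries of a group as well as counting error.

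Values are given per library for tested members that passed the test or reached 10 CPM in a group mean, and up to 4 genes per list are those with the smallest adjusted p. The members and lists were chosen with earlier results of these data known, and lists were written from general knowledge.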

Additional observations from a re-analysis of the deposited data

Results flagged for a closer look

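Within each group of 4 libraries, the highest and lowest value of each tested member were examined with Dixon's test, and 3 of 38 groups had a library far from the others, where chance gives about 1 in 20. Anxa1 was at 10.8 CPM in control replicate 4 and at 4.00 to 4.52 CPM in the other controls. Lgals1 was at 31.5 CPM in Mfp2-/- replicate 2 and at 13.1 to 15.5 CPM in the other Mfp2-/- libraries. Lgals9 was at 2.71 CPM (6 counts) in control replicate 2, the Mfp2+/- mouse. It was at 3.48 to 3.64 CPM in control replicates 1, 3 and 4 (10, 11 and 10 counts). A relation to the Mfp2+/- genotype was not tested.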

How the results depend on the processing

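The counts of members called and the log2 fold change of each tested member were computed under up to 20 other settings, of which 2 were added after the data were seen, and each pair ratio under 11. Counts of markers and of single lists were repeated only under the lens settings and without both Mfp2-/- replicates 2 and 3. Counts of groups without overlap and of promoters have no alternative. Anxa5, S100a1, S100a6, S100a11 and S100a16 passed the test in all 20, and Lgals3 and Lgals9 in the 19 in which they were tested. With at least 10 counts required in every library, 0 galectins rose, because Lgals3 and Lgals9 were then not tested. With the lens sum as a covariate 2 annexins rose. With Mfp2-/- replicate 4 as the only Mfp2-/- library, 7 members and 1 annexin rose, and 30 genes over all pathway lists changed, against 50 of 99 tested otherwise and 35 with the lens sum as a covariate. Without both Mfp2-/- replicates 2 and 3, S100a4 was at 0.52 (adjusted p = 0.333) and S100b at -0.047. S100a4 also missed the threshold with limma-voom (adjusted p = 0.0700). S100a13 passed it without Mfp2-/- replicate 1 (1.03, adjusted p = 0.0479). Lgals8 turned slightly positive with upper-quartile factors (0.027), total counts (0.028), without control replicate 3 (0.047, with -0.19 as the lowest value when 1 library was left out) and with the lens sum (0.032).

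The difference in the log2 ratio of S100a10 to Anxa2 was 0.0069 with 1 count added and 0.19 without both Mfp2-/- replicates 2 and 3. Leaving out 1 library, it ranged from -0.087 to 0.15, and that of S100a11 to Anxa1 from -0.49 to 0.17. The interval of each difference spans 0. Deviations of same-numbered libraries from their group means had correlations of 0.080, -0.16, 0.25 and 0.21. Of 4 controls, 1 was closest to its own number. So few libraries cannot settle whether the numbers pair the mice. With the replicate number as a block, 12 members rose, S100a4 missing the threshold (1.24, adjusted p = 0.0625), and 2845 of 12516 genes were called. At this depth changes of the 12 members with few counts were not detectable. Why 5 members were listed at 0 was not tested.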
